A study of Homo sapiens with 4 samples.

Results

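The RNA of 2 libraries that carry the same label, KIF26B siRNA replicates 1 and 2, was compared, 1 library on each side. They are 2 of the 4 libraries of the series, and the other 2 are control siRNA replicates 1 and 2. All 4 came from HCT116, an established human colorectal carcinoma cell line, harvested 48 h after the cells had received a small interfering RNA (siRNA), a short duplex that directs cleavage of the transcript it pairs with. The control cells received a control siRNA and the others an siRNA against KIF26B, which encodes a kinesin-superfamily protein. The study used more than 1 siRNA against KIF26B, and the sources used here do not say which was in which library. Nor do the labels say whether the replicates came from separate cultures. The values are FPKM (sequenced fragments per gene, divided by the length of its exons and by the size of the library), and 14523 of the 58735 listed genes had a mean of at least 1 FPKM over the 4 libraries. These genes were described without a test, since each side held 1 library.

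A knockdown replicate can depart from its partner in the silenced transcript itself, in transcripts an siRNA silences by partial pairing, and in whatever the cells met in their dish. Cultured carcinoma cells keep several programs that follow their surroundings. Hypoxia-inducible factors raise glycolytic enzymes when oxygen is short, the sterol-sensing SREBP factors raise cholesterol synthesis when membranes lack sterol, and ATF4 raises amino acid transporters and synthetases when amino acids run short. Genes of mitosis and of ribosome building follow growth.

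In the rest of the text, 4 FPKM values in a row stand in the order control siRNA replicates 1 and 2, then KIF26B siRNA replicates 1 and 2. A difference is log2(FPKM + 1) of replicate 2 minus replicate 1, and an offset is log2(FPKM + 1) of 1 KIF26B siRNA library minus the mean of both controls. Both offsets share the controls. The reads recovered from the values summed to between 19199042 and 24859425 per library. Of 8 epithelial markers checked, 6 passed the filter, among them EPCAM at 82.2, 82.3, 76.97 and 98.6 FPKM, while the intestinal markers CDH17 and VIL1 stayed under 0.142 FPKM in all 4 libraries. None of 10 leukocyte and 6 endothelial markers passed, with summed levels of 0.541 to 0.857 and 0.214 to 0.480 FPKM per library. Of 9 fibroblast markers only COL1A1 passed, and their sums were 7.405, 7.19, 4.93 and 8.83 FPKM.

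The targeted transcript was read thinly. KIF26B (ENSG00000162849, chr1:245318287-245872734, plus strand, GRCh37) had 0.1096, 0.205, 0.1397 and 0.0307 FPKM, which correspond to 31, 73, 43 and 8 reads. It did not pass the filter. Replicate 1 lay between both controls and replicate 2 lay below them. The rate in replicate 2 was 0.220 times that in replicate 1, with an exact conditional 95% interval of 0.089 to 0.473 that covers counting error only. Between the controls the rate in replicate 2 was 1.87 times that in replicate 1, with an interval of 1.22 to 2.95. YAP1, the Hippo pathway coactivator, had 19.95, 20.1, 31.4 and 22.9 FPKM, so replicate 1 stood furthest above the controls. METTL3, the m6A methyltransferase, had 10.2, 9.696, 10.1 and 15.5 FPKM, and here replicate 2 was the higher library while replicate 1 sat between the controls. METTL3 overlaps TOX4 on the opposite strand. YTHDF2, a reader of m6A, was at 21.8, 22.01, 25.1 and 21.9 FPKM. The transcription factor FOXD3 was at 0.147, 0.117, 0 and 0.186 FPKM, with at most 7 reads in a KIF26B siRNA library.

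Across protein-coding genes the KIF26B siRNA libraries differed far more from each other than the controls did. Of 11205 such genes, 205 were at least 2-fold higher in replicate 2 (1.83%) and 127 were at least 2-fold higher in replicate 1 (1.13%). Between the controls 4 genes lay 2-fold apart in either direction (0.0357%). The standard deviation of the difference was 0.43 between the KIF26B siRNA libraries and 0.11 between the controls, a ratio of 3.84. The median difference was 0.01 in the former pair and 0.00 in the latter, so the bulk of the genes was centred in both. Of the protein-coding genes, 37.8% differed between the KIF26B siRNA libraries by more than 0.34, the 99th percentile of the absolute difference between the controls.

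**Figure D1:**
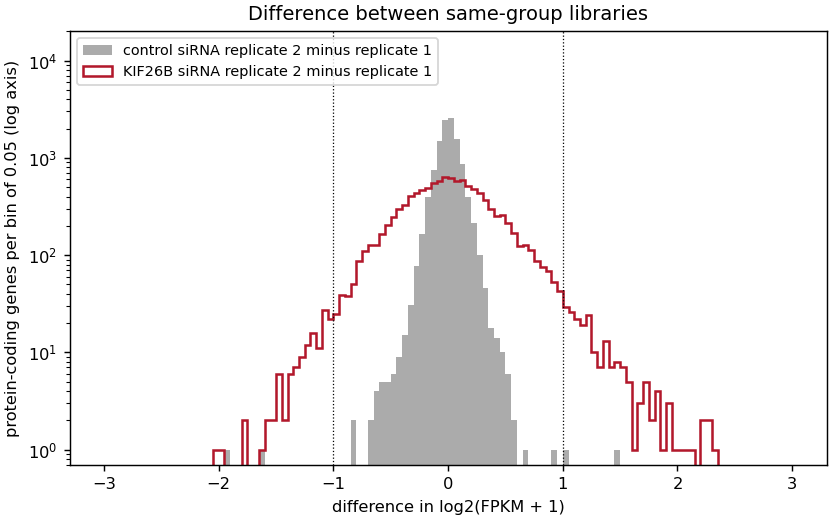
Histogram of the difference in log2(FPKM + 1), replicate 2 minus replicate 1, over 11205 protein-coding genes, for the control siRNA pair (grey) and the KIF26B siRNA pair (red line), with a log axis for genes per bin and dotted lines at 2-fold. The red distribution is wider (SD 0.43 against 0.11) and crosses the dotted lines with 205 genes on the right and 127 on the left, where the control pair has 4 in all.

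Noncoding, pseudogene and unannotated genes had a wide spread in both pairs. Of 3318 such genes, 831 were shorter than 200 bases. In this class, 292 genes were at least 2-fold higher in replicate 2 (8.80%) and 161 in replicate 1 (4.85%), but 253 also lay 2-fold apart between the controls (7.63%). Over all 14523 genes the counts were 497 (3.42%), 288 (1.98%) and 257 (1.77%). When at least 20 reads were asked of every library, a filter added once the values were known, these counts became 266, 153 and 10. The account below therefore keeps mainly to protein-coding genes.

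The wider spread was present at each level of expression. Among protein-coding genes between 1 and 2 FPKM the standard deviation of the difference was 0.38 for the KIF26B siRNA pair and 0.16 for the controls, and above 200 FPKM it was 0.38 and 0.05. The centre shifted a little with level, from a median of -0.06 in the lowest of these bins to 0.15 in the highest, where the control medians were 0.00 and 0.02. It also shifted with the GC content of the longest transcript, from -0.05 at 45 to 50% to 0.10 at 60% and above, where the control medians were 0.00 and 0.02. By gene length the medians stayed between -0.03 and 0.02.

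Most genes 2-fold apart sat on opposite sides of the controls. Of the 205 genes higher in replicate 2, 165 lay above both controls in replicate 2 and below both in replicate 1, while 18 lay above both controls in both libraries and 9 below both in both. Of the 127 genes higher in replicate 1, 105 lay above both controls in replicate 1 and below both in replicate 2. The median offsets of the former genes were -0.61 in replicate 1 and 0.74 in replicate 2, and those of the latter were 0.48 and -0.69. These positions partly follow from choosing genes by their difference. Over all 11205 protein-coding genes, 1576 (14.1%) had replicate 2 above both controls with replicate 1 below both, and 1542 (13.8%) had the reverse.

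Each library was also far from the controls in its own right. Replicate 1 was at least 2-fold above the control mean for 66 protein-coding genes (0.589%) and below it for 128 (1.14%). Replicate 2 was above it for 152 (1.36%) and below it for 110 (0.982%). When each KIF26B siRNA library was set against a different control, the correlation across protein-coding genes was 0.37 for replicate 1 against control 1 and replicate 2 against control 2, and 0.37 for the crossed choice, with the same sign in 63.4% and 62.9% of genes. Genes past 2-fold in both libraries numbered 33 and 34 under these choices, with the same sign in 100% and 91.2% of them. This is a description over 11205 genes, which are not independent of each other, and it carries no p.

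Of the gene lists, which were chosen with earlier results of these data known, glycolysis and the hypoxia response had the largest median difference. That list held 40 genes, of which 39 passed the filter. Of these 39, 19 were at least 2-fold higher in replicate 2 and 0 were in replicate 1, against 1.83% and 1.13% of protein-coding genes. The median difference was 0.95, with a median of 0.01 between the controls and no member further than 0.15 apart there. All but PFKFB3 and ADM were higher in replicate 2. In 31 of the 39, replicate 2 lay above both controls and replicate 1 below both. The median offsets were -0.47 in replicate 1 and 0.43 in replicate 2. The fewest reads behind any of the 39 in a library were 30.

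The 250 bases before the transcription start of 3 members are shown because these genes were among those most apart and hypoxia-inducible factors bind a short core in DNA. The sequences are RefSeq's on GRCh38.p14, and capitals mark ACGTG or GCGTG on either strand (CACGT and CACGC on the other). ANKRD37 is at chr4:185396591-185396840, HK2 at chr2:74833877-74834126 and ENO2 at chr12:6914330-6914579, all on the plus strand.
ANKRD37: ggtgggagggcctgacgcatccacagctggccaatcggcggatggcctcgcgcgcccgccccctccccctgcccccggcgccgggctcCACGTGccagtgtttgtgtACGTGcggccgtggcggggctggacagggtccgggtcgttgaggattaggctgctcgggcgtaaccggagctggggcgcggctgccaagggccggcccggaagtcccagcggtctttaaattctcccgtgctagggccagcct
HK2: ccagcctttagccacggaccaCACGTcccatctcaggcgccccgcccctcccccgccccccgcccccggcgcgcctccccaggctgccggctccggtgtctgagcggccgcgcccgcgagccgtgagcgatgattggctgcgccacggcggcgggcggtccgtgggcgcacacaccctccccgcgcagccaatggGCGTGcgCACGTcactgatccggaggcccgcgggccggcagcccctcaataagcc
ENO2: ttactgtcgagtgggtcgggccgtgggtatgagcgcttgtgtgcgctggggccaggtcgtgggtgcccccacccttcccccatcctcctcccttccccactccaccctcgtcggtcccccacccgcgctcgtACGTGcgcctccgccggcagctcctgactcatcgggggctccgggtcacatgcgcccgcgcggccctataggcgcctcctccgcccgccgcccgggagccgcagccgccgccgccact
ANKRD37 and HK2 held 3 matches each and ENO2 held 1, and 2 of the ANKRD37 matches overlap in 1 palindrome, CACGTG. Matches are common: 43.1% of 27305 promoters of this length held at least 1, as did 58.9% of the 9152 belonging to protein-coding genes that passed the filter. In the list, 23 of the 34 members with a promoter sequence held one (67.6%). A match describes letters in this window and nothing about binding.

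Some genes of glucose transport and the first steps of glycolysis showed the pattern, and others did not. HK2, the hexokinase that traps glucose in the cell, had 37.8, 38.002, 22.8 and 90.6 FPKM. SLC2A3, a glucose transporter, had 5.96, 6.24, 3.37 and 14.8 FPKM. PFKFB4, which sets the level of an activator of phosphofructokinase, had 22.998, 22.9, 13.4 and 41.5 FPKM. In all 3 the controls were nearly equal, replicate 1 was lower and replicate 2 was higher. The read rate of HK2 in replicate 2 was 3.97 times that in replicate 1 (95% interval 3.81 to 4.14, counting error only). SLC2A1, another glucose transporter, differed by 0.21, with 138, 138, 109 and 126 FPKM. Replicate 2 was thus below the controls for this gene. PFKFB3, as given above, was not higher in replicate 2.

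Housekeeping enzymes of the pathway moved as well. GAPDH, widely used as a reference transcript, had 1174, 1162, 1168 and 2403 FPKM, so replicate 1 lay between the controls and the rate in replicate 2 was 2.06 times that in replicate 1. GPI, which interconverts glucose and fructose phosphates, had 102, 99.6, 94.5 and 219.7 FPKM. ENO1 and ENO2 are enolases. ENO1 was at 666, 686, 571 and 950.1 FPKM, and ENO2 at 52.6, 53.3, 29.7 and 107 FPKM. LDHA, which turns pyruvate into lactate, had 290.3, 292, 209 and 387 FPKM. For the enolases and LDHA the controls lay between the KIF26B siRNA libraries.

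Targets of hypoxia-inducible factors outside glycolysis followed. ANKRD37 had 32.9, 31.4, 8.06 and 38.5 FPKM, and most of its gap came from the low value in replicate 1. It overlaps UFSP2 on the opposite strand. BNIP3L, a receptor for the removal of mitochondria, had 44.9, 45.9, 14.5 and 58.4 FPKM, again with replicate 1 the library furthest from the controls. NDRG1, a stress-responsive gene, had 99.7, 101.03, 63.8 and 251 FPKM and rested mainly on replicate 2. ANGPTL4, an inhibitor of lipoprotein lipase, had 122, 128, 48.4 and 187 FPKM. VEGFA, the vascular growth factor, had 9.64, 9.796, 6.71 and 16.3 FPKM. ADM, the vasodilator adrenomedullin, stood apart from these with 90.2, 91.8, 56.8 and 55.4 FPKM, lower in both libraries to the same degree. Members other than ANKRD37, NDRG1, HK2 and BNIP3L were named after their values were seen.

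**Figure D2:**
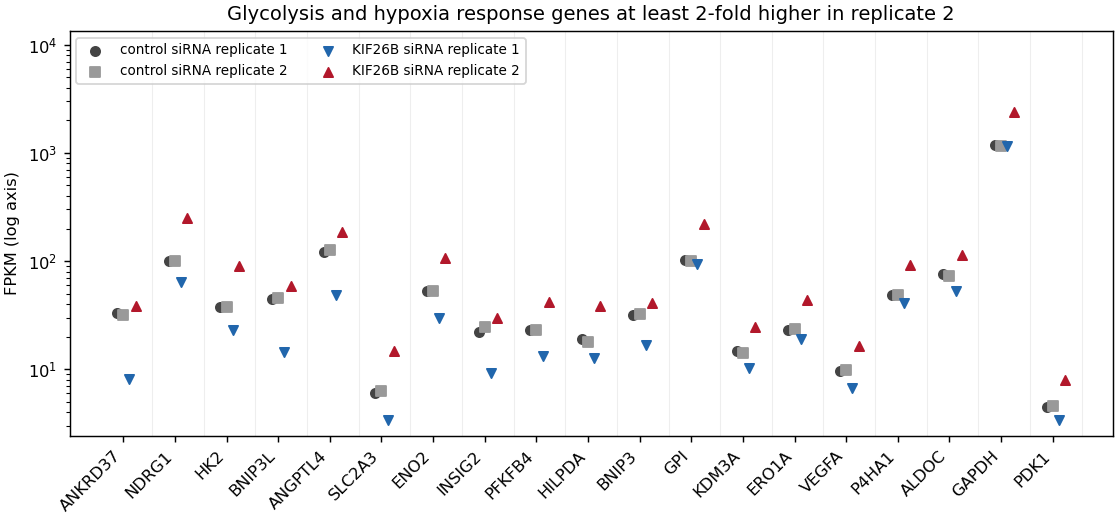
FPKM on a log axis of the 19 glycolysis and hypoxia response genes at least 2-fold higher in KIF26B siRNA replicate 2, 4 symbols per gene for the 4 libraries. Grey and black control symbols nearly coincide, red replicate 2 is the highest symbol for every gene, and blue replicate 1 is the lowest for all but GAPDH, where it lies between the controls.

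Cholesterol synthesis and uptake differed chiefly through replicate 1. All 25 list members passed the filter, and 21 were higher in replicate 2. At least 2-fold higher were 6 in replicate 2 and 0 in replicate 1, against 1.83% and 1.13% of protein-coding genes. The median difference was 0.56, with median offsets of -0.75 in replicate 1 and -0.07 in replicate 2. MSMO1, a sterol oxidase, had 72.9, 71.4, 30.2 and 70.8 FPKM. IDI1, which makes an isoprenoid building block, had 41.6, 41.6, 16.7 and 36.3 FPKM. MVD, a mevalonate-pathway decarboxylase, had 44.2, 46.4, 25.96 and 57.5 FPKM. For MSMO1 and IDI1 replicate 2 was a little below the controls and replicate 1 far below them. INSIG1, which holds SREBP in the endoplasmic reticulum when sterol is ample, was different, with 54.1, 55.6, 22.3 and 109 FPKM. Its difference of 2.23 was among the 10 highest by the ranking used, and it departed from the controls in both libraries, in opposite directions.

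The amino acid response showed the reverse arrangement, with replicate 2 away from the controls and replicate 1 near them. Of 36 ATF4-related genes that passed, 32 were higher in replicate 2. At least 2-fold higher were 5 in replicate 2 and 0 in replicate 1, against 1.83% and 1.13% of protein-coding genes. The median difference was 0.50, and the median offsets were 0.02 in replicate 1 and 0.44 in replicate 2. DDIT3, a stress transcription factor also known as CHOP, had 5.69, 4.56, 4.94 and 26.4 FPKM. ASNS, asparagine synthetase, had 1.26, 0.937, 1.18 and 5.22 FPKM. STC2, a secreted glycoprotein of the stress response, had 21.03, 21.2, 18.1 and 48.3 FPKM. In DDIT3 and ASNS replicate 1 lay between the controls. DDIT3 overlaps MARS1 and MBD6 on the opposite strand by gene span. Its reads cannot be wholly assigned if exons also overlap and strand was not used. SLC7A11, the cystine transporter that ATF4 and NRF2 both control, had 1.51, 1.74, 1.67 and 4.59 FPKM.

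Oxidative and metal stress genes also favoured replicate 2. Of 24 NRF2 targets that passed, 3 were at least 2-fold higher there, against 1.83% of protein-coding genes, and the median difference was 0.32. FTL, the ferritin light chain, had 1017, 1032, 988 and 2251 FPKM and was high in replicate 2 alone. OSGIN1, an oxidative stress growth inhibitor, had 3.46, 4.18, 4.63 and 12.9 FPKM. In replicate 1, 4 NRF2 targets were higher, among them the transporter ABCC2 with 6.12, 5.87, 19.7 and 10.99 FPKM. Of 5 metallothionein-list genes that passed, the zinc exporter SLC30A1 among them, all were higher in replicate 2. The median difference was 0.69, with a median of 0.12 between the controls. MT1X, a metal-binding protein, had 19.3, 20.4, 16.2 and 54.1 FPKM.

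Mitotic genes were below the controls in both libraries and lower in replicate 1. Of 59 mitotic and G2/M genes that passed, 56 were higher in replicate 2, but 1 was past 2-fold, against 1.83% of protein-coding genes. The median difference was 0.50, with median offsets of -0.87 in replicate 1 and -0.41 in replicate 2. In replicate 1, 21 members were at least 2-fold below the controls, and in replicate 2, 1 was. The shares of all protein-coding genes were 1.14% and 0.982%. In bulk RNA, fewer cells in mitosis and less of these transcripts per cell cannot be told apart. ANLN, a scaffold of the cleavage furrow, had 52.9, 54.3, 19.5 and 39.01 FPKM. TTK, a spindle checkpoint kinase, had 17.9, 16.5, 6.74 and 13.1 FPKM. UBE2C, the ubiquitin-conjugating enzyme of the anaphase-promoting complex, was the member past 2-fold, with 101.3, 103, 57.04 and 124 FPKM. It was above the controls in replicate 2 where most of the list was below them. DNA replication and nucleotide supply genes differed less, with a median difference of 0.10 over 58 genes and median offsets of -0.43 and -0.34. In that list RRM2, a ribonucleotide reductase subunit, had 36.4, 36.6, 24.3 and 44.2 FPKM, and UNG, a uracil glycosylase, had 18.3, 18.8, 26.1 and 12.3 FPKM, the opposite order.

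**Figure D3:**
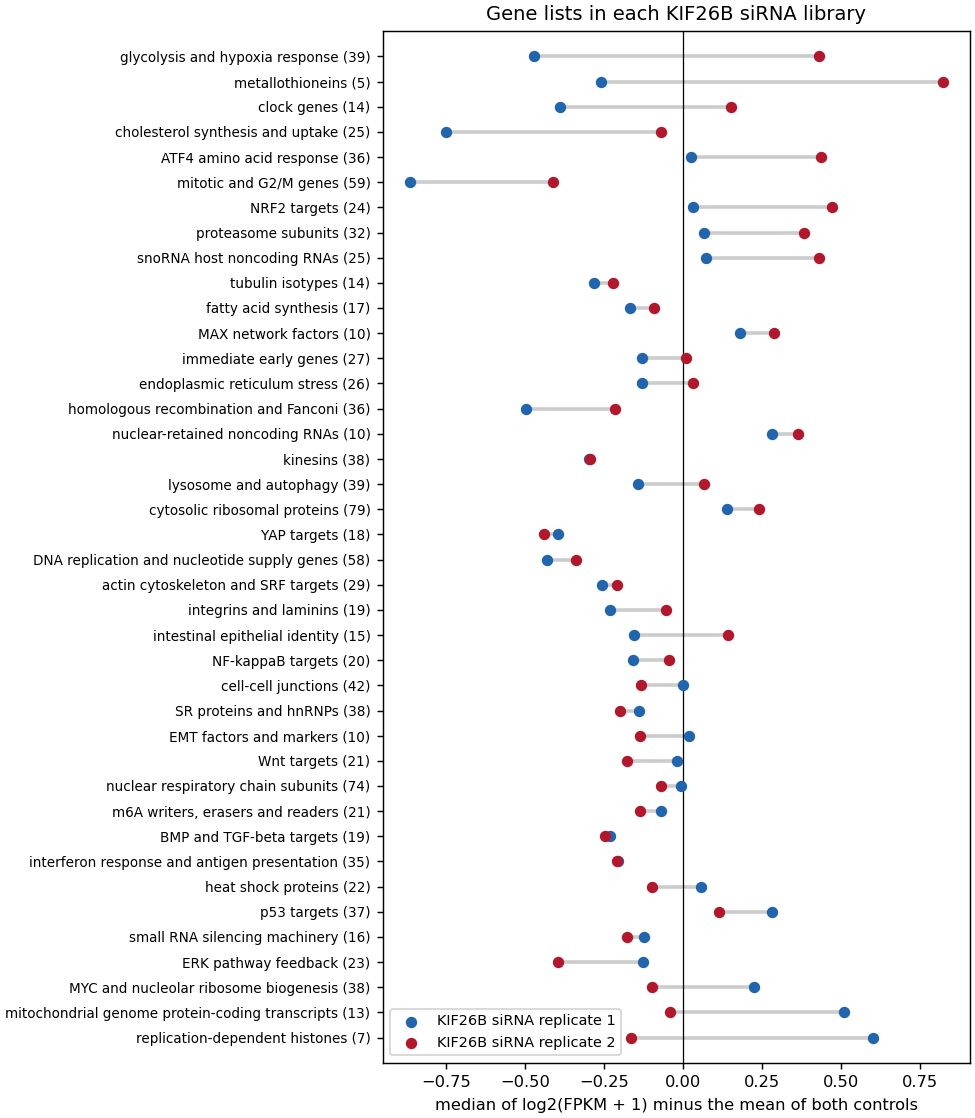
Median offset from the mean of both controls, on the log2(FPKM + 1) scale, for each gene list with at least 5 members past the filter (number in brackets), in KIF26B siRNA replicate 1 (blue) and replicate 2 (red), ordered by the median difference. Glycolysis and hypoxia response at the top spans zero (-0.47 and 0.43), mitotic genes lie left of zero in both (-0.87 and -0.41), and mitochondrial genome transcripts near the bottom are right of zero in replicate 1 alone (0.51 and -0.04).

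Messenger RNAs of the mitochondrial genome were higher in replicate 1. All 13 protein-coding transcripts were higher in replicate 1, 0 of them past 2-fold, with a median difference of -0.56 and median offsets of 0.51 and -0.04. MT-ND2, a complex I subunit, had 2172, 2147, 3924 and 2070 FPKM. MT-CYB, the complex III cytochrome, had 2940, 2937, 4159 and 2195 FPKM. MT-CO1, a complex IV subunit, differed by -0.08 and stood above the controls in both libraries, with 8504, 8355, 12047 and 11432 FPKM. The large ribosomal RNA MT-RNR2 ran the other way, with 4718, 4822, 6794 and 11459 FPKM. Of the 21 mitochondrial transfer RNAs that passed, 16 were also higher in replicate 2 and 5 in replicate 1. Some rest on few reads, such as MT-TM, counted as higher in replicate 2 on 14 and 13 reads in replicates 1 and 2. Others lay far apart between the controls, such as MT-TV at -1.77. Mitochondrial genes took 6.82%, 6.84%, 9.58% and 7.69% of the recovered reads, and the ribosomal RNA genes among them took 0.831%, 0.848%, 1.18% and 1.81%. The libraries were made from poly(A) RNA, and how much of these differences comes from its selection was not tested. MT-CO1, MT-RNR2, MT-TM and MT-TV were named after their values were seen. The 74 nuclear-encoded respiratory chain genes that passed had a median difference of -0.03, and 0 were 2-fold apart. Of all protein-coding genes, 1.83% were 2-fold higher in replicate 2 and 1.13% in replicate 1. A count of 0 in lists of this size therefore says little.

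**Figure D4:**
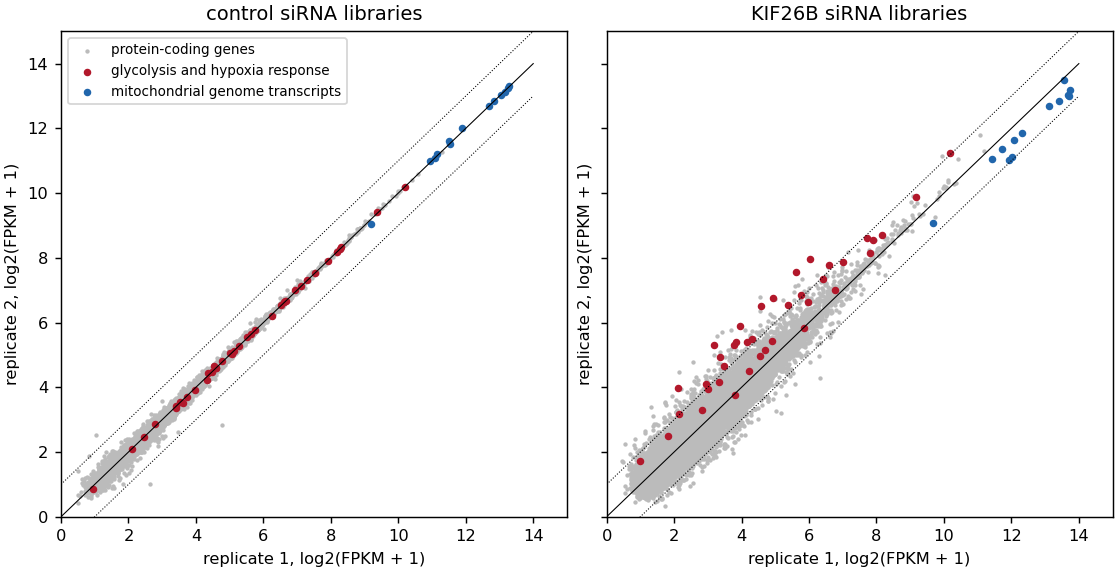
Replicate 2 against replicate 1 in log2(FPKM + 1) for protein-coding genes (grey), with a solid line at equality and dotted lines at 2-fold, for the control siRNA libraries (left) and the KIF26B siRNA libraries (right). On the left all coloured genes lie on or next to the solid line. On the right the glycolysis and hypoxia response genes (red) lie above it except PFKFB3 and ADM, and the 13 mitochondrial genome transcripts (blue) lie below it.

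Genes of ribosome building were higher in replicate 1. Of 38 MYC-related and nucleolar genes that passed, 31 were higher in replicate 1. Past 2-fold were 2 in that direction and 0 in the other, against 1.13% and 1.83% of protein-coding genes. The median difference was -0.30, with median offsets of 0.22 and -0.10. RRS1, a ribosome assembly factor, had 16.5, 19.4, 29.3 and 11.5 FPKM. POLR1A, the largest RNA polymerase I subunit, had 8.47, 8.004, 13.1 and 5.895 FPKM. Both were above the controls in replicate 1 and below them in replicate 2. The 79 cytosolic ribosomal proteins went the other way, with 70 higher in replicate 2 and 9 in replicate 1. Their median difference was 0.12, and 0 were past 2-fold, against the same shares. Of 49 replication-dependent histone genes in the data, 7 passed, and 5 of these were higher in replicate 1. Past 2-fold were 2 of them, against 1.13% of protein-coding genes. H2BC5 had 4.56, 4.98, 11.1 and 4.45 FPKM and H2BC12 had 23.8, 28.7, 37.8 and 17.1 FPKM. The libraries were made from poly(A) RNA, and how far its selection shaped these values was not tested.

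Single genes with the largest gaps in favour of replicate 2 included several outside these groups. KRT7, a simple-epithelium keratin, had 14.4, 14.5, 3.45 and 21.04 FPKM, a difference of 2.31, the highest among protein-coding genes. PER1, a repressor of the circadian clock, had 16.6, 16.3, 8.72 and 46.7 FPKM. CDKN1C, the cell cycle inhibitor p57, had 19.6, 21.1, 9.75 and 50.99 FPKM. In all 3 the controls lay between the KIF26B siRNA libraries. Of the noncoding genes LINC00659 had 12.3, 10.5, 4.59 and 23.5 FPKM. The mitochondrial transfer RNA MT-TD met the same rule on 3 and 13 reads, a ratio of 5.12 with an interval of 1.41 to 28.03.

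A list of 19 clock genes was drawn up after PER1 was seen, and 14 of them passed. Of the 14, 10 were higher in replicate 2 and 4 in replicate 1, and the median difference was 0.56. At least 2-fold higher were 3 in replicate 2 and 0 in replicate 1, against 1.83% and 1.13% of protein-coding genes. PER1, which prompted the list, is among these 3, so the count partly follows from how the list was made. DBP, a clock output factor, had 3.72, 4.09, 2.85 and 12.2 FPKM, and NR1D2, a nuclear receptor of the clock, had 11.2, 10.1, 7.99 and 18.4 FPKM. Another such list was built around the MAX network and held 11 genes, among them ARRDC4, which is no factor of that network. Of these, 10 passed, and 4, ARRDC4 included, were at least 2-fold higher in replicate 2 and 0 in replicate 1, against the same shares. This list too was drawn up after values were seen, so its count may partly follow from how it was made. The median difference was 0.21, with 6 genes higher in replicate 2 and 4 in replicate 1. MXD1, a MAX partner that opposes MYC, had 5.85, 5.69, 2.33 and 10.4 FPKM. ARRDC4, a glucose-responsive arrestin-domain gene, had 4.904, 4.001, 7.99 and 22.02 FPKM, above the controls in both libraries.

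Of the 10 genes ranked highest in favour of replicate 1, EGR1, GOT2, FZD6 and ABRACL rested mainly on a low value in replicate 2. EGR1, an immediate early transcription factor, had 74.1, 78.6, 79.3 and 18.5 FPKM, a difference of -2.04. GOT2, the mitochondrial aspartate aminotransferase, had 35.97, 34.7, 38.7 and 12.4 FPKM. FZD6, a Wnt receptor, had 14.8, 13.2, 16.3 and 4.74 FPKM. Replicate 1 stood at or a little above the controls in each, and replicate 2 stood alone. ABRACL, a small actin regulator, followed with 25.7, 24.4, 31.6 and 8.58 FPKM. SOX4, a developmental transcription factor, departed on both sides with 13.3, 13.6, 35.04 and 8.18 FPKM. KRT23, a keratin, was above the controls in both libraries, with 2.26, 2.18, 14.9 and 4.81 FPKM.

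POP1, a subunit of RNase P and RNase MRP, had 6.86, 6.96, 13.005 and 4.004 FPKM, and PYCR3, a proline synthesis enzyme, had 5.81, 6.297, 10.04 and 3.33 FPKM. PRF1, perforin, had 5.71, 4.51, 12.4 and 2.93 FPKM. METTL7B, a methyltransferase, had 5.07, 5.76, 12.1 and 3.31 FPKM. In these 4 genes the controls lay between both KIF26B siRNA libraries. PRF1, METTL7B and PYCR3 overlap genes on the opposite strand (PALD1, ITGA7 and TIGD5). PDF, a mitochondrial deformylase at 8.67, 8.85, 13.9 and 4.301 FPKM, overlaps VPS4A on the opposite strand and COG8 on its own, and the microRNA gene MIR4664, read 82 and 24 times in the KIF26B siRNA libraries, lies within FAM83H. These overlaps are between whole gene spans, and whether exons overlap was not checked. Where they do, reads of such pairs may not be wholly assignable to either gene.

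Genes that left the controls in 1 library only were more frequent for replicate 2. Here the offset in the other library was no more than 0.2. Of 11205 protein-coding genes, 61 were at least 2-fold away in replicate 2 alone, 37 above and 24 below. For replicate 1 alone there were 25, 6 above and 19 below. Whatever the other library, replicate 2 was at least 2-fold above the controls for 152 genes and below for 110. For replicate 1 these totals were 66 and 128, and part of the contrast may follow from them. The genes low in replicate 2 alone included PSMD3, a proteasome lid subunit, with 49.7, 52.3, 47.1 and 16.2 FPKM, while 26 of the 32 proteasome genes that passed were higher in replicate 2. GALNT7, a glycosyltransferase, had 8.55, 8.39, 8.49 and 2.56 FPKM. NCOA5, a nuclear receptor coactivator, had 11.4, 12.6, 12.8 and 4.005 FPKM. For these genes 3 libraries were close together and 1 stood apart, which follows from the rule that chose them. SRSF3, a splicing factor, had 33.5, 32.5, 34.9 and 15.6 FPKM, and NBN, of the DNA break sensing complex, had 9.51, 8.84, 9.05 and 4.04 FPKM.

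On the high side of replicate 2 alone, MKNK2, a kinase that phosphorylates a translation initiation factor, had 27.1, 27.8, 30.9 and 106 FPKM. RBCK1, part of the linear ubiquitin ligase, had 16.3, 16.2, 18.1 and 45.9 FPKM. Of the genes low in replicate 1 alone, DUSP5, a nuclear ERK phosphatase, had 226, 216, 93.4 and 210.3 FPKM. HMGB1, a chromatin protein, had 87.97, 87.3, 38.1 and 76.5 FPKM. HAS3, a hyaluronan synthase, was high in replicate 1 alone, with 32.2, 33.3, 78.01 and 30.5 FPKM, and overlaps CHTF8 on the opposite strand. MKNK2, RBCK1, HMGB1, HAS3, GALNT7 and NCOA5 were named after their values were seen.

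**Figure D5:**
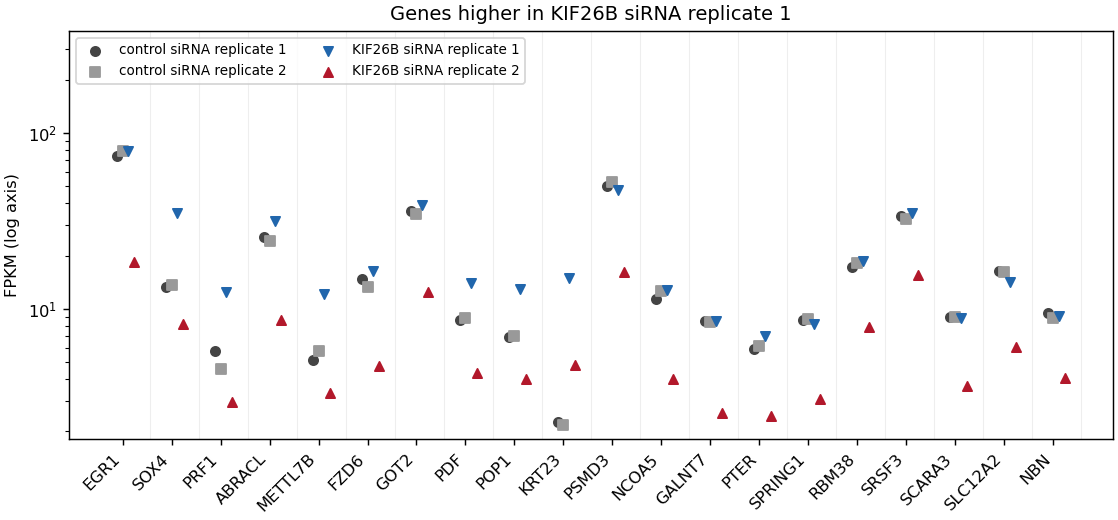
FPKM on a log axis of the 10 protein-coding genes ranked highest in favour of KIF26B siRNA replicate 1 (EGR1 to KRT23) and of 10 genes that were low in replicate 2 alone (PSMD3 to NBN), 4 symbols per gene for the 4 libraries. Red replicate 2 is the lowest symbol for every gene except KRT23, and for the right-hand 10 genes replicate 1 lies close to both controls. For those 10 genes both positions follow from the rule that chose them.

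Several other lists were close between the libraries by their medians. Their few members past 2-fold are to be read against the 1.83% and 1.13% of all protein-coding genes that were 2-fold higher in replicate 2 and in replicate 1, and such counts are not a result about these lists. The 18 YAP targets that passed had a median difference of 0.10 and 0 members past 2-fold, with median offsets of -0.39 and -0.44. The 19 BMP and TGF-β targets had a median difference of -0.07 with offsets of -0.23 and -0.25. In that list ID3, an inhibitor of differentiation factors, had 21.7, 22.4, 26.6 and 10.96 FPKM, and the ligand BMP4 had 21.6, 22.5, 42.1 and 19.4 FPKM. Among 42 cell junction genes the median difference was 0.02 and 1 gene was past 2-fold in each direction, the tight junction claudin CLDN7 with 55.01, 52.3, 63.1 and 134 FPKM and the desmosomal cadherin DSC2 with 6.26, 6.48, 7.75 and 2.87 FPKM. CLDN7 overlaps ELP5 on the opposite strand. Of 38 kinesins, KIFC2 alone was past 2-fold, at 25.3, 25.2, 21.7 and 51.2 FPKM. Of 21 m6A genes, RBM15, a methyltransferase complex subunit, was past 2-fold at 12.9, 11.9, 6.58 and 19.2 FPKM.

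In the remaining lists with at least 5 members the medians differed by less than 0.29 and at most 3 members were past 2-fold in a direction. These counts are likewise to be read against 1.83% and 1.13% of protein-coding genes, and are not a result about the lists. Among 35 interferon genes the median difference was -0.07, and IRF7, an interferon regulator, had 10.8, 10.01, 5.27 and 18.9 FPKM. Of 37 p53 targets, PLK3 and DDB2 were past 2-fold in favour of replicate 2 and BTG2 and TP53I3 in favour of replicate 1. Of 27 immediate early genes, 3 were at least 2-fold higher in replicate 2 and 2 in replicate 1, KLF4 and EGR1 being furthest each way. Among 25 snoRNA host RNAs, SNHG19 and SNHG5 were past 2-fold in favour of replicate 2. Both are noncoding, and 8.8% of noncoding, pseudogene and unannotated genes were 2-fold higher there. SNHG19 also differed by 0.35 between the controls.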

How the data were processed

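Libraries of poly(A) RNA were read from both ends, and the authors compared groups with DESeq2. The submitters' processing notes name HISAT2 2.0.5 and featureCounts 1.5.0-p3. The methods name hg19 and the notes hg38, and this was not settled, since the files hold no coordinates. Whether counting used strand is not given in the sources used here. The deposited values are FPKM, a unit read from the values, 1 per gene and library.

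Genes were named and placed from GENCODE annotation on GRCh37, which lacked 2222 of 58735 identifiers. Whole reads were recovered from FPKM steps by searching each gene's length (34637 of 34638 genes above 0, within 0.0001 reads). They summed to 1.00, 1.01, 1.01 and 1.06 times the divisors implied by the values, in the order used for FPKM.

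The difference of log2(FPKM + 1) was taken for genes averaging 1 FPKM or more over the 4 libraries, called at 2-fold, with no test. Intervals are exact conditional (Clopper-Pearson, 95%) and cover counting error only. The members and lists were chosen with earlier results of these data known. Named genes are KIF26B, METTL3, YTHDF2, FOXD3 and YAP1; the 10 protein-coding genes each way averaging 5 FPKM or more and the largest absolute difference less that between controls; 5 genes each way on opposite sides of both controls; and up to 4 members per list. A gene that this rule names is not reported here. Settings varied were the pseudocount, filter, scaling, gene type, threshold and control. The functions were tested on simulated data. Python 3.11.15, numpy 2.4.6, pandas 2.3.3, scipy 1.17.1 and matplotlib 3.10.9 were used.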

Additional observations from a re-analysis of the deposited data

Results flagged for a closer look

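Some genes had reads in a single library only. With at least 10 reads in 1 library and 0 in the other 3, 8 genes were found for KIF26B siRNA replicate 1 and 5 for replicate 2, against 2 and 4 for control siRNA replicates 1 and 2. They lie below the filter, and 1 of the 8 and 0 of the 5 are protein-coding. The most reads behind one were 40, for DIRC3-AS1 in replicate 2, and KRT36, a hair keratin, had 14 in replicate 1. The difference from the controls is small and was not tested.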

How the results depend on the processing

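The counts of genes 2-fold apart, over all gene types, moved with the treatment of low values. In the order higher in KIF26B siRNA replicate 2, higher in replicate 1 and apart between the controls they were 497, 288 and 257, and became 924, 666 and 581 with a pseudocount of 0.1, 326, 169 and 51 with at least 1 FPKM in every library, 205, 127 and 4 for protein-coding genes, 266, 153 and 10 with at least 20 reads in each library, and 1668, 1206 and 685 at a threshold of 1.5-fold. With no filter on low values the last 2 were 433 and 572. The spread of the KIF26B siRNA difference over that of the controls was 1.77 over all genes, 3.84 for protein-coding genes and 3.14 with at least 20 reads, and stayed above 1 in every setting. Genes 2-fold from the controls numbered 472 in replicate 1 and 638 in replicate 2, and became 1064 and 1401 with a pseudocount of 0.1 and 280 and 370 with at least 1 FPKM in every library. Without either control they ranged from 554 to 588 and from 726 to 734. The correlation of the 2 libraries' offsets over all gene types was 0.26 with either assignment of the controls. Median-of-ratios scaling changed none of these counts by more than 1.5 times. Scaling by total recovered reads, chosen after the data were seen, lowered the median difference of the lists by 0.07 at the middle and turned the sign of 5 of 41, while 17 in place of 19 glycolysis and hypoxia genes were 2-fold higher in replicate 2. With a pseudocount of 0.1 there were 21. Their median difference was 0.88 with that scaling, and 0.87 less the median of genes of the same level and GC. That subtraction, also chosen after the data were seen, turned the sign of 4 of 41 medians, and gave 0.02 in place of 0.12 for cytosolic ribosomal proteins and -0.19 in place of -0.07 for BMP and TGF-β targets. The 2 libraries leave no estimate of the spread between KIF26B siRNA replicates other than their own difference. No test was run, so no fit with a replicate block was made.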
